A study of Mus musculus with 10 samples.

Results

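The epithelium of the intestinal crypt stands on a basement membrane built around laminins, and 8 genes for laminin chains and for the integrin that holds them were followed through sorted mouse intestinal stem cells. They are the laminin genes Lama3, Lama5, Lamb1, Lamb2, Lamb3 and Lamc1 and the integrin genes Itga6 and Itgb4, taken by gene symbol, 8 of the 30295 gene rows. All 8 passed the filter on low counts that left 15839 genes for testing. The 8 genes were selected on earlier results of these libraries, in which Lamb3 stood among the genes with the smallest p between diets in the Hopx cells. Their values in that contrast, and in the interaction built on it, are therefore given as a description with no p-value.

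A laminin is a cross-shaped trimer of 1 alpha, 1 beta and 1 gamma chain that is secreted and polymerises under the cell. The chains of Lama3 and Lamb3 meet in laminin-332, which anchors epithelia firmly, while the Lama5 chain joins Lamb1 or Lamb2 and Lamc1 in the laminins that line much of the adult gut epithelium. The integrin pair of Itga6 and Itgb4 binds laminin-332 from the cell side and, through plectin, ties it to keratin filaments in the hemidesmosome. Itga6 can also pair with the chain of Itgb1.

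Cells were sorted by flow cytometry from C57Bl/6 mice, 1 library per animal, in 5 isolations that each held 1 ad libitum-fed (AL) and 1 calorie-restricted (CR) mouse of 1 reporter line. Lgr5 cells came from mice with the Lgr5-EGFP-IRES-CreER reporter, which marks active stem cells of the crypt base (Lgr5 AL, n = 3, and Lgr5 CR, n = 3, isolations 1 to 3). Hopx cells came from Hopx-CreER::LSL-tdTomato mice, in which Cre turns on a lasting tdTomato label in reserve stem cells and so also in cells that descend from them (Hopx AL, n = 2, and Hopx CR, n = 2, isolations 4 and 5). The sources used here state neither the age of the mice nor how Cre was induced nor how long food was restricted. No isolation held both lines, so line, isolation and population cannot be told apart.

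Depth ran from 20.3 M estimated counts (M, 1e6 counts; Lgr5 AL replicate 3) to 87.2 M (Hopx CR replicate 1). Levels are given as CPM, counts per 1e6 counts after TMM scaling, and genes are compared with each other only in TPM, which is per transcript length. The Y-linked Eif2s3y was 0.0450 to 0.125 TPM in Lgr5 AL replicate 3, Lgr5 CR replicate 3 and Hopx CR replicate 1 and 8.91 TPM or more elsewhere, and the AL and CR animal of isolation 4 therefore differ in this gene. The summed CPM of 10 epithelial markers was 9447 to 14025, against 3.31 to 6.57 for 12 markers of fibroblasts and smooth muscle and 7.62 to 14.3 for 9 endothelial markers. Lgr5 mRNA was 75.0 to 255 CPM in Lgr5 AL and 70.0 to 87.2 CPM in Hopx AL. Hopx mRNA was 105 to 111 CPM in Hopx AL and 116 to 133 CPM in Lgr5 AL, so the Hopx label did not go with more Hopx mRNA.

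Of the 8 genes, 4 had an entry in the promoter table of RefSeq (GRCm38.p6). The 250 bases before the start of Lamb3 (chr1:193301744-193301993, plus strand, 1 of its 2 windows) and of Lama5 (chr2:180225860-180226109, minus strand) are shown because Lamb3 was higher in CR in every isolation and the diet difference of Lama5 had opposite signs in the 2 populations. Capitals mark matches to CACCC, the core of a KLF site, in Lamb3 and to GGGCGG, a GC box, in Lama5, each on either strand, 5′ to 3′ along the gene.
Lamb3: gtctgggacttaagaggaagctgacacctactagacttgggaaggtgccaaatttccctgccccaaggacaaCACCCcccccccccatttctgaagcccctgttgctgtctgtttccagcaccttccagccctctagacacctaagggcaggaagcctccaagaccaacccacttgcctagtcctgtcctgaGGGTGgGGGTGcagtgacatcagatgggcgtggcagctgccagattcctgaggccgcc
Lama5: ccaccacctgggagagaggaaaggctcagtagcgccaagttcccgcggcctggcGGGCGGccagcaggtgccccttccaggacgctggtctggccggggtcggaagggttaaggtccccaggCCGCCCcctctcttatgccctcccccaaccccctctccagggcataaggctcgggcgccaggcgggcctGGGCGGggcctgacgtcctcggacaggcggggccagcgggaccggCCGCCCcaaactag
The Lamb3 window held 3 CACCC matches and no GC box, and the Lama5 window held 4 GC boxes and no CACCC. Of 32851 promoter windows of this length, 52.0% held CACCC and 32.7% held GGGCGG, and neither window held TGANTCA (AP-1, in 6.75% of windows) or GGAATG (TEAD, in 12.6%). The second Lamb3 window, which starts where the printed one ends, held 3 CACCC matches and 1 GGAATG match; the printed window is the one farther upstream. A match is only a run of letters.

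Lamb3, the beta chain particular to laminin-332, was the laminin gene with the highest level in every library. Across the libraries it ran from 5.52 to 56.8 TPM, and the next highest laminin member, Lamb2, reached 12.4 TPM. Of all beta chain TPM in a library, Lamb3 made up 64.1% to 87.7%. Lama3, whose chain joins that of Lamb3 in the same trimer, was at only 0.107 to 3.41 TPM, and the ratio of Lamb3 to Lama3 TPM lay between 5.25 and 116. Lamb3 mRNA thus exceeded Lama3 mRNA in every library.

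**Figure D1:**
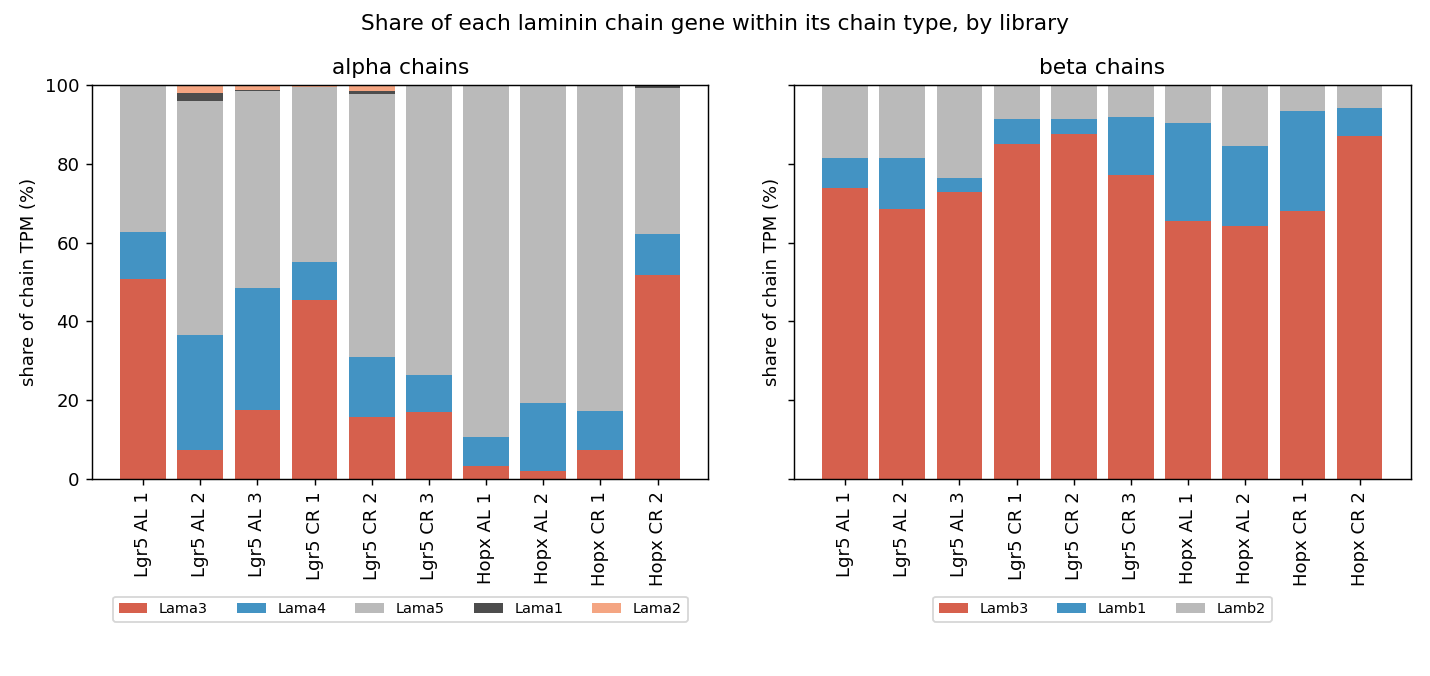
Share of each chain gene in the summed TPM of its chain type (percent, vertical axis) in each of the 10 libraries (horizontal axis, group and replicate), for alpha and beta chains. Lamb3 took 64.1% to 87.7% of the beta chain total, and the Lama5 share of the alpha chain total ranged from 37.0% to 89.3%.

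In Lgr5 AL, Lamb3 was 55.9, 73.9 and 79.9 CPM in replicates 1 to 3, and in Lgr5 CR it was 176, 129 and 144 CPM. The groups did not overlap, and their means were 69.9 ± 12.5 and 150 ± 24.3 CPM (SD, n = 3 each). The log2 fold change of CR against AL was 1.10 (SE 0.216), with an unadjusted p of 0.000485 and an adjusted p of 0.184 in edgeR's quasi-likelihood test, so it did not pass the threshold of 0.05. DESeq2 gave an adjusted p of 0.00221 for Lamb3 and edgeR without the low-count filter gave 0.0399, and both are past the threshold. The call for Lamb3 between diets in Lgr5 cells thus depended on the tool and the filter, while its fitted log2 fold change stayed between 0.93 and 1.21 when each library was left out.

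In the Hopx cells, Lamb3 was 35.6 and 22.3 CPM in AL and 78.8 and 74.7 CPM in CR, with means of 28.9 ± 9.4 and 76.7 ± 2.9 CPM (SD, n = 2 each). Both CR libraries were above both AL libraries, and the fitted log2 difference was 1.41 (SE 0.267). The interaction, the Hopx diet difference minus the Lgr5 diet difference, was 0.31 (SE 0.339) on the log2 scale. Within each isolation, Lamb3 was higher in the CR library in 5 of 5, by 1.64, 0.79, 0.84, 1.13 and 1.70 on the log2(CPM + 1) scale in isolations 1 to 5.

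Itgb4, the integrin chain that only pairs with the Itga6 chain, was 134, 116 and 107 CPM in Lgr5 AL and 170, 139 and 142 CPM in Lgr5 CR. In the Hopx cells it was 84.9 and 69.2 CPM in AL and 128.6 and 127.9 CPM in CR. In CPM the CR values lay above the AL values in both populations. In TPM the Lgr5 groups overlapped, with means of 31.4 in CR and 28.7 in AL. The fitted log2 differences between diets were 0.33 (SE 0.156, edgeR adjusted p 0.526) in Lgr5 cells and 0.73 (SE 0.192) in Hopx cells. The TPM ratio of Lamb3 to Itgb4, which does not depend on how libraries are scaled, was 1.60, 1.43, 1.56, 0.944 and 0.900 in the CR libraries of isolations 1 to 5. In the AL libraries it was 0.643, 0.979, 1.16, 0.646 and 0.496. The ratio was therefore higher in CR in 5 of 5 isolations. Among them are the Hopx isolations, whose diet difference was used to choose the genes and named Lamb3, so the count is a description.

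Itga6, the alpha chain of the hemidesmosomal integrin, was the member with the highest TPM in every library (32.0 to 122 TPM, against 10.2 to 35.5 TPM for Itgb4). It was 113, 171 and 225 CPM in Lgr5 AL and 253, 184 and 273 CPM in Lgr5 CR, and these groups overlapped. In Hopx AL it was 154 and 198 CPM and in Hopx CR 227 and 214 CPM. The fitted log2 difference between diets was 0.48 (SE 0.254, adjusted p 0.571) in Lgr5 cells and 0.33 (SE 0.311) in Hopx cells. The TPM ratio of Itga6 to Itgb4 ran from 1.46 to 4.96 and was higher in CR in 1 of 5 isolations.

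**Figure D2:**
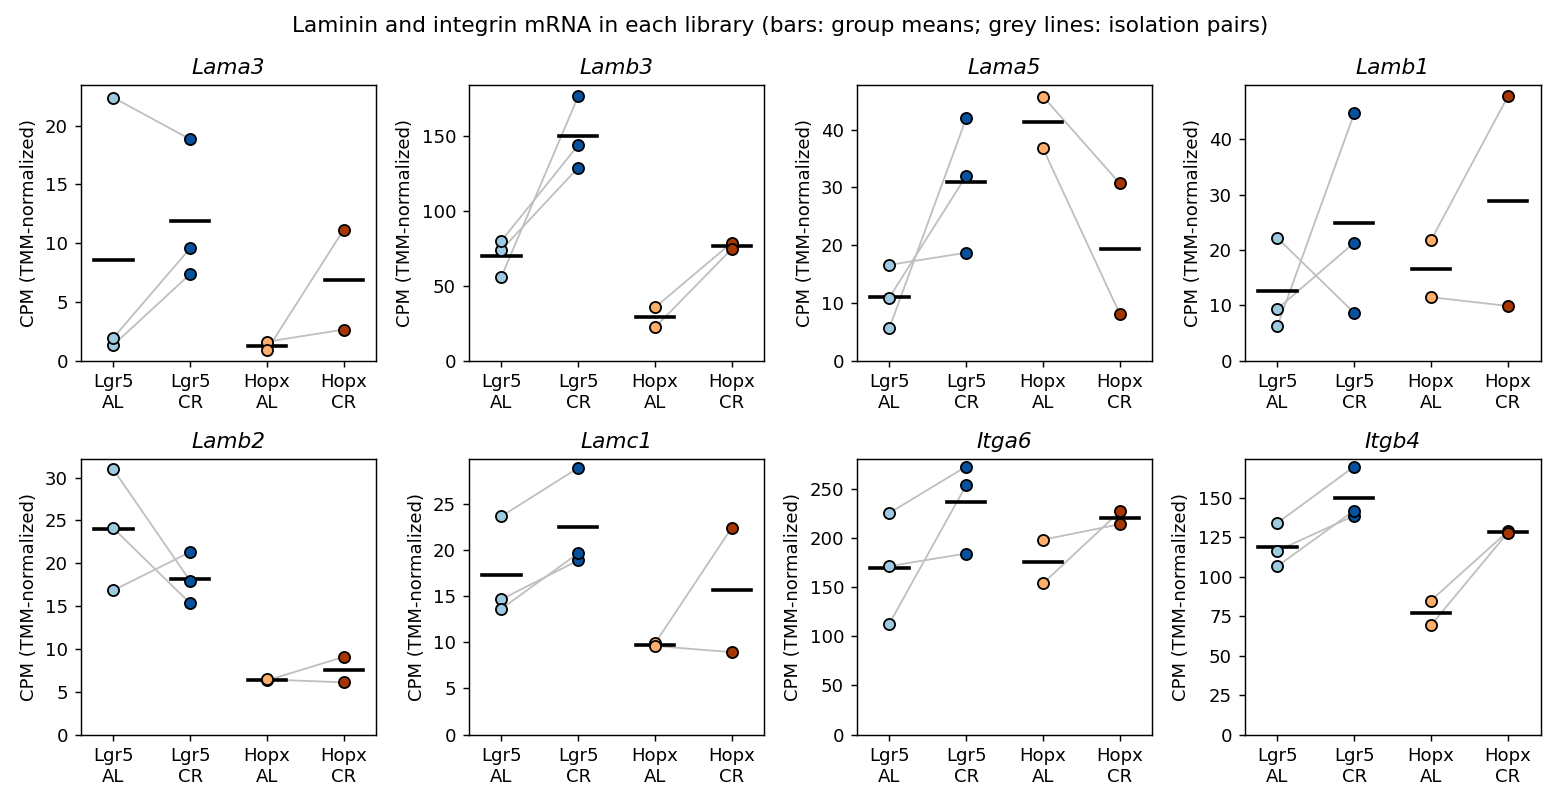
CPM (vertical axes, from 0) of each of the 8 genes in every library of the 4 groups; points are libraries, black bars are group means and grey lines join the AL and CR library of an isolation. Lamb3 and Itgb4 were higher in CR in each of the 5 pairs, while Lama5 went up in the 3 Lgr5 pairs and down in the 2 Hopx pairs.

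Lama5, the alpha chain of the main laminins of adult epithelia, had diet differences of opposite sign in the 2 populations. It was 16.6, 10.9 and 5.65 CPM in Lgr5 AL and 18.7, 32.0 and 41.9 CPM in Lgr5 CR. In Hopx AL it was 45.7 and 36.7 CPM and in Hopx CR 30.7 and 8.11 CPM. CR was above AL without overlap in Lgr5 cells and below it in Hopx cells, with log2 differences of 1.48 (SE 0.520, p 0.0174, edgeR adjusted p 0.401) and -1.09 (SE 0.627). The fitted interaction was -2.56 (SE 0.816). The Hopx value rested on few libraries, being -2.35 without Hopx CR replicate 1 and -0.42 without Hopx CR replicate 2.

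Lama3 was 22.4, 1.34 and 1.95 CPM in Lgr5 AL, 18.8, 7.37 and 9.56 CPM in Lgr5 CR, 1.63 and 0.912 CPM in Hopx AL, and 2.66 and 11.2 CPM in Hopx CR. Lgr5 AL replicate 1 stood far above the other AL libraries, and the Lgr5 diet difference (log2 0.48, SE 0.957) was 2.86 without that library and -0.057 without Lgr5 CR replicate 1. In Hopx cells the difference was 2.43 (SE 1.25), and 1.06 without Hopx CR replicate 2. Its sign between diets in the Lgr5 cells was therefore set by single libraries.

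Lamb1, Lamb2 and Lamc1, the chains that build the Lama5 laminins, showed no common diet pattern. Lamb1 was 6.26 to 22.2 CPM in Lgr5 AL, 8.66 to 44.7 in Lgr5 CR, 11.5 and 21.8 in Hopx AL and 9.91 and 47.7 in Hopx CR, and the diet groups overlapped in both populations. Lamc1 was 13.6 to 23.6, 18.9 to 28.9, 9.59 and 9.87, and 8.92 and 22.4 CPM in the same order. Lamb2 was 16.8, 24.1 and 31.0 CPM in Lgr5 AL and 21.3, 15.3 and 17.9 CPM in Lgr5 CR. In the Lgr5 cells the log2 differences were 0.98 (SE 0.714) for Lamb1, 0.38 (SE 0.355) for Lamc1 and -0.40 (SE 0.268) for Lamb2, with edgeR adjusted p-values of 0.698, 0.771 and 0.673. Without Lgr5 CR replicate 3 they were 0.25 for Lamb1 and 0.16 for Lamc1, and without Lgr5 AL replicate 3 that of Lamb2 was -0.17. In the Hopx cells they were 0.79, 0.69 and 0.25, and all 3 turned negative without Hopx CR replicate 1, at -0.75, -0.125 and -0.064.

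Lamb2 was lower in each Hopx library than in any Lgr5 library. It was 6.32 and 6.44 CPM in Hopx AL and 9.08 and 6.10 CPM in Hopx CR, and the lowest Lgr5 library was at 15.3 CPM. The log2 difference of Hopx against Lgr5 cells was -1.91 (SE 0.322, edgeR adjusted p 0.0581) under AL and -1.26 (SE 0.312, adjusted p 0.444) under CR. The AL difference missed the threshold narrowly and passed it with DESeq2 (adjusted p 4.13e-07), without the low-count filter (0.0136), without Lgr5 AL replicate 1 (0.0490) and with a correction for transcript length (0.0412). It did not pass without Lgr5 AL replicate 2 or 3, nor in edgeR with the library scaling of DESeq2, so the call depended on the setting. These population contrasts share Hopx libraries with the contrast that the genes were chosen on.

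Under AL, the Hopx minus Lgr5 difference of Lama5 was 1.90 (log2, SE 0.564, edgeR adjusted p 0.139). It was -0.63 for Itgb4 (SE 0.177, edgeR adjusted p 0.131), -0.83 for Lamc1 (SE 0.407, adjusted p 0.321) and -2.74 for Lama3 (SE 1.21, adjusted p 0.277). The Lama3 value rested on 1 library, being -0.36 without Lgr5 AL replicate 1. Itga6 and Lamb1 differed by 0.05 and 0.39 on the log2 scale (edgeR adjusted p 0.948 and 0.837). Lamb3 differed by -1.27 (SE 0.250) under AL and by -0.96 (SE 0.246) under CR, given without a p because the selection named it. Beside Lamb3, DESeq2 called Lama5, Lamb2 and Itgb4 under AL and Lamb2 under CR, and nothing is read from its calls of Lamb3.

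**Figure D3:**
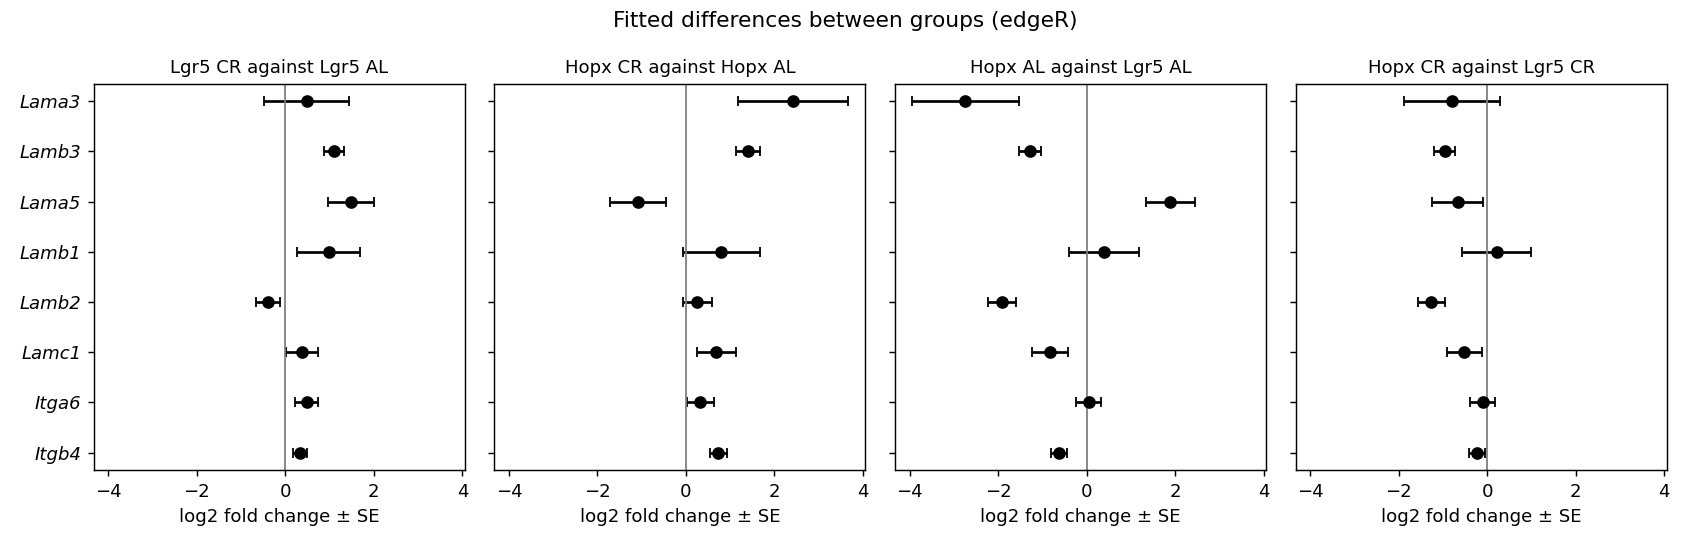
Fitted log2 fold change (horizontal axis) with its SE (bars) for the 8 genes in 4 contrasts between groups, from edgeR. Lamb3 lay at 1.10 and 1.41 between diets and at -1.27 and -0.96 between populations, and Lama5 changed sign between the diet contrasts.

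No member passed the edgeR threshold in any of the 5 contrasts. The background is as low, since 0.0189% of the tested genes were called between diets in Lgr5 cells, 0.0126% between diets in Hopx cells, 0.00631% for the interaction, and 0.0189% in each of the 2 population contrasts. At an unadjusted p under 0.05, 2 of 8 members were past the threshold between diets in Lgr5 cells (Lama5 and Lamb3; 9.78% of all genes). Between populations, 5 of 8 were past it under AL (17.7% of all genes) and 2 of 8 under CR (6.3%), Lamb3 included in both. Nothing is read from the Lamb3 part of those counts. In the 2 contrasts that chose the members, nothing is read from the count. There 2 of 8 were past the threshold between diets in Hopx cells (8.52% of all genes) and 1 of 8 for the interaction (4.72%).

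CPM values that did not overlap between groups were counted as well. Between diets in Lgr5 cells 3 of 8 members (Lama5, Lamb3 and Itgb4) were higher in CR, against 7.41% of all genes, and 0 were lower, against 7.49%. In TPM the values of Itgb4 overlapped between these groups. In Hopx cells 4 members (Lama3, Lamb3, Itga6 and Itgb4) were higher in CR, beside 21.5% of all genes. There 1 (Lama5) was lower in CR, beside 21.1%. The members were chosen on this contrast, so nothing is read from these counts. Under AL, 1 member (Lama5) was higher in Hopx than in Lgr5 cells (18.8% of all genes) and 4 (Lamb2, Lamb3, Lamc1 and Itgb4) were lower (15.8%). Under CR, 0 were higher (11.7%) and 3 (Lamb2, Lamb3 and Itgb4) were lower (11.4%). Lamb3, which the selection named, is among the lower members under both diets, and nothing is read from its place.

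Calls by the other settings have their own background. DESeq2 called 1.46% of genes and 1 member (Lamb3) between diets in Lgr5 cells, 4.47% and 4 members between populations under AL, and 0.769% and 2 members under CR. In the Hopx diet contrast, which the selection used and where nothing is read from the count, it called 0.583% of genes and 1 member. Without the low-count filter edgeR called 0.335% of genes and 1 member between diets in Lgr5 cells and 0.784% and 2 members (Lamb2 and Lamb3) between populations under AL. On TPM, limma called 3 members (Lamb2, Lamb3 and Itgb4) between populations under AL, beside 29.4%, 30.5% and 9.53% of genes at a pseudocount of 1, at 0.1 and with no filter. That scale lowered the median of all genes by -0.62, -0.72 and -0.16 in the same order, and at a pseudocount of 1 the members' differences were -1.95, -1.92 and -1.34. Length correction called 0.328% of genes and 1 member (Lamb2) there. Leaving out Lgr5 AL replicate 1 called 0.701% of genes and 2 members (Lamb2 and Lamb3) in the same contrast. The selection named Lamb3, so nothing is read from its place in these population counts.

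Over the 8 members the median log2 difference between diets was 0.48 in Lgr5 cells, with 7 of 8 above 0, where the median of all tested genes was 0.017 and 51.8% lay above 0. In Hopx cells, where the members were chosen, it was 0.71 with 7 of 8 above 0, and nothing is read from it. 

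Across the 5 isolations, 3 of 8 members (Lamb3, Itga6 and Itgb4) were higher in the CR library in every pair on the log2(CPM + 1) scale, as were 8.71% of all tested genes. Isolations 4 and 5 are the Hopx libraries on which the group was chosen, so the count is a description. Itgb4 was higher by 0.34, 0.25, 0.41, 0.59 and 0.88 in isolations 1 to 5, and Itga6 by 1.16, 0.10, 0.27, 0.56 and 0.11. The smallest exact two-sided p that 5 pairs allow is 0.063, so an exact permutation test of the pairs cannot pass the threshold, and none was run. On the log2(TPM + 1) scale Lamb3 was still higher in 5 of 5, whereas Itga6 and Itgb4 were lower in isolation 3 by -0.25 and -0.11, in a pair where the median of all genes was -0.35.

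**Figure D4:**
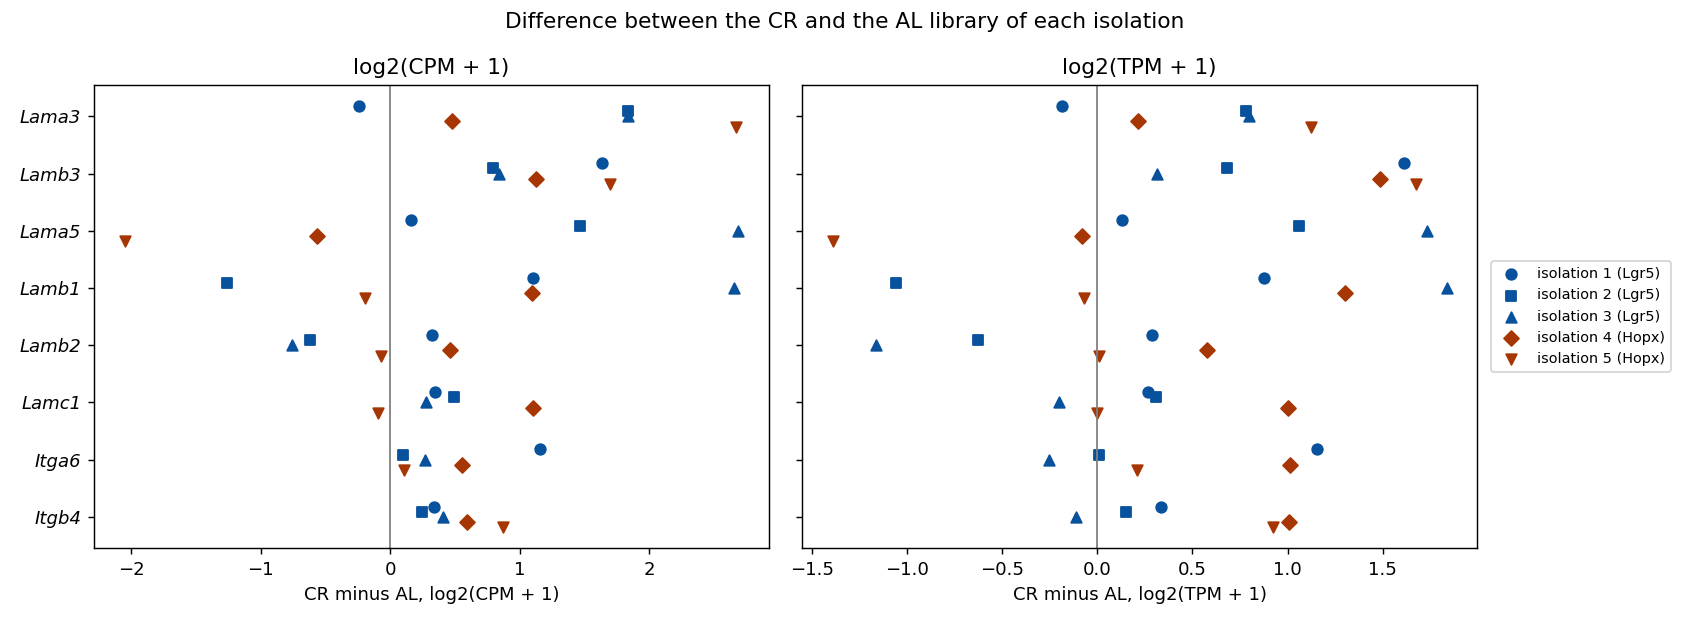
Difference between the CR and the AL library of each isolation (horizontal axes) for the 8 genes, on the log2(CPM + 1) scale at left and the log2(TPM + 1) scale at right; blue symbols are Lgr5 and brown symbols Hopx isolations. Lamb3 was above 0 in all 5 isolations on both scales.

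Shares within a library, which no scaling can move, were compared between diets as well. Lamb3 made up 73.8%, 68.6%, 72.9%, 65.5% and 64.1% of beta chain TPM in the AL libraries of isolations 1 to 5. In the CR libraries it made up 85.1%, 87.7%, 77.2%, 68.0% and 86.9%, higher in CR in 5 of 5. The Hopx isolations, on whose diet difference the genes were chosen, are part of this count, so it is a description. The Lamb2 share ran from 18.5% to 23.5% in Lgr5 AL and from 8.01% to 8.68% in Lgr5 CR, and from 9.70% to 15.4% in Hopx AL and from 5.90% to 6.52% in Hopx CR. The diet groups were apart in both populations. Since the shares of a chain type sum to the whole, a higher Lamb3 share leaves less for Lamb1 and Lamb2 together, though not for each. The Lama5 share of alpha chain TPM was 80.8% and 89.3% in Hopx AL and 37.0% to 59.4% in Lgr5 AL, with 37.0% and 82.8% in Hopx CR and 44.4% to 73.4% in Lgr5 CR.

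Over the 10 libraries Lamb3 and Itgb4 correlated with a Pearson r of 0.917, and 0.30 after group means were removed. Itga6 and Itgb4, the 2 chains of 1 receptor, correlated with only 0.253, and -0.530 within groups. These are descriptions over libraries that share scaling and diet, with n = 10.

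Of the laminin chains outside the 8 genes, Lama1 (0 to 0.0569 TPM), Lama2 (0 to 0.113) and Lamc3 (0 to 0.0764) were at or near 0. Lama4 was at 0.279 to 1.06 TPM and made up 7.45% to 30.9% of alpha chain TPM. Nid1, which links laminin to collagen IV, was at most 0.0931 TPM, and the collagen IV chain Col4a1 at most 0.0277 TPM. Both are made mostly by mesenchyme in the gut. Nid2, the relative of Nid1, was at 0.692 to 4.47 TPM, and Agrn, the heparan sulfate proteoglycan agrin, at 6.19 to 19.8 TPM. These 4 were named after their values were seen.

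In the hemidesmosome, Plec, the link to keratin, was at 5.34 to 30.6 TPM and Dst, its relative, at 2.02 to 5.87 TPM, while Col17a1, the collagen of skin hemidesmosomes, was at 0 to 0.366 TPM. Among receptors and their partners, Itgb1 (38.6 to 102 TPM), Itga3 (18.4 to 66.6), Dag1 (32.4 to 93.4), Cd151 (6.40 to 12.6) and Bcam (3.32 to 9.89) were all detected in every library. Plec differed between diets by 0.52 (SE 0.328, edgeR adjusted p 0.644) in Lgr5 and 0.86 (SE 0.403, adjusted p 0.591) in Hopx cells, and Dag1 by 0.24 (SE 0.167, adjusted p 0.679) and 0.62 (SE 0.205, adjusted p 0.504). Itgb1 differed by 0.44 (SE 0.179, adjusted p 0.478) and 0.14 (SE 0.219, adjusted p 0.885).

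None of the other listed genes passed the edgeR threshold in any contrast. Among 18 tested genes of other basement membrane components, 10 were higher and 8 lower in CR in Lgr5 cells (median log2 0.046) and 10 and 8 in Hopx cells (median 0.28). Of 17 tested integrins and other laminin receptors, 13 were higher and 4 lower in Lgr5 cells (median 0.24) and 11 and 6 in Hopx cells (median 0.25). Of 21 tested focal adhesion genes, 7 were higher and 14 lower in Lgr5 cells (median -0.11) and 15 and 6 in Hopx cells (median 0.32). Of 13 tested matrix proteases and their inhibitors, 11 were higher and 2 lower in Lgr5 cells (median 0.26) and 8 and 5 in Hopx cells (median 0.15).

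Markers of absorptive enterocytes moved with diet as well. The summed CPM of 14 enterocyte markers was 26870, 8469 and 5156 in Lgr5 AL, 29345, 21016 and 23829 in Lgr5 CR, 11572 and 7493 in Hopx AL, and 19204 and 22733 in Hopx CR. All 14 markers were higher in CR in both populations (median log2 1.02 and 1.20), and 0 passed the threshold. Over the 10 libraries the correlation with this sum was 0.865 for Lama3, 0.748 for Itgb4 and 0.541 for Lamb3. It was 0.304 for Lamb1, 0.271 for Lama5, 0.174 for Lamc1, 0.027 for Itga6 and -0.107 for Lamb2. All are Pearson r on log2 values, a description. Lgr5 AL replicate 1 had an enterocyte sum within the CR range, the highest Lama3 of all libraries, and the lowest Lamb3 of the Lgr5 libraries. In bulk samples fewer cells of a type and less RNA per cell cannot be told apart, and the part of enterocyte RNA in the diet differences was not tested.

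Markers of other cell types varied as well. The summed Paneth marker CPM was 15947 to 64314 in Lgr5 AL and 82912 and 205610 in Hopx AL. Under CR it overlapped, at 48175 to 65635 in Lgr5 and 61874 and 97943 in Hopx cells. The enteroendocrine sum was 1288 to 2512 in Lgr5 AL and 3726 and 5881 in Hopx AL. Under CR that sum overlapped too, at 734 to 3979 in Lgr5 and 1965 and 6117 in Hopx cells. The immune sum was 142 and 145 in Hopx AL against 43.4 and 56.5 in Hopx CR. The immune sum of Lgr5 AL ran from 32.7 to 127. The sum of 8 tuft cell markers was 265 to 613 CPM in Lgr5 AL and 89.5 to 148 CPM in Lgr5 CR, without overlap, and 179 to 484 CPM in the Hopx libraries. The part of these cell types in the differences between populations and between diets was not tested.

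Ranked over 9938 genes by the correlation of log2 CPM over the 10 libraries, the gene most like Lamb3 was Tdg (Pearson r 0.962), a DNA repair glycosylase, followed by Sft2d2 (0.961). Zmiz1 was nearest to Itgb4 (0.980), Sos1 to Itga6 (0.974), Tor1b to Lama5 (0.924), Npl to Lama3 (0.979) and Clic6 to Lamb2 (0.983). Fzd9 was nearest to Lamb1 (0.922) and Htr4 to Lamc1 (0.965). The members were left out of this ranking, so it cannot show how like each other they were.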

How the data were processed

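RNA from 10 libraries was made into full-length cDNA with a SMART-Seq v4 kit and Nextera XT and read on a NextSeq 500, per the labels' protocols. Amplified copies therefore count as reads of their own, and strand is not recorded. The authors deposited estimated counts and TPM per gene symbol. Kallisto and edgeR (no versions) and GRCh38, a human build, stand in the submitters' processing notes, although the symbols are those of mouse genes. The annotation is not given in the sources used here.

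Estimated counts, as deposited, were rounded to whole numbers and filtered with filterByExpr (minimum count 10, 15839 of 30295 genes). A mean per group was fitted to all 10 libraries with edgeR 4.0.16 (R 4.3.3) quasi-likelihood and TMM, and two-sided p-values were adjusted by Benjamini-Hochberg over all tested genes (threshold 0.05). The biological coefficient of variation was 0.389. Alternatives were DESeq2 1.42.0, limma 3.58.1 on log2(TPM + 1), no filter, other pseudocounts, leaving out each library, the isolation as a block and, added after the data were seen, a correction for transcript length (GENCODE M21, 95.5% of tested genes). The procedure was tested on simulated data.

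The members, gene lists, contrasts and rules were chosen with earlier results of these data known. The text names all 8 members, other laminin chains, fixed receptor and hemidesmosome partners, and any other listed gene past the threshold. It also names the genes nearest to each member, among non-members with a mean of at least 5 CPM. Sequences and motif shares come from RefSeq tables (GRCm38.p6). The labels give each isolation a number that its AL and CR animal share. The deviations of the paired libraries from their group means correlated by 0.0738, 0.158, 0.0118, 0.0206 and 0.0206 over 15839 genes in isolations 1 to 5. With n = 2 in each Hopx group, isolations 4 and 5 must give the same value, so they are not separate checks. Replicates are separate animals. Depth was 20.3 to 87.2 M (1e6) estimated counts per library. One listed gene outside the 8 is not reported here.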

Additional observations from a re-analysis of the deposited data

Results flagged for a closer look

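Lama5 was the only one of the 8 genes for which every isolation of 1 population moved one way and every isolation of the other moved the opposite way. Of all 15839 tested genes, 5.23% showed such opposite signs, so 1 of 8 is near the background. On the log2(CPM + 1) scale it was higher in CR by 0.16, 1.46 and 2.69 in the 3 Lgr5 isolations, and its CR minus AL difference was -0.56 and -2.05 in the 2 Hopx isolations. The fitted difference between the 2 diet effects was -2.56 (log2), which did not pass the edgeR threshold after adjustment over all genes. Lama5 belongs to a group chosen on earlier results of these data, so no p-value is given.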

How the results depend on the processing

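Of 800 alternatives, 730 kept the direction and the side of the threshold, 34 moved past the threshold and 36 changed sign; the cause was not tested. With the isolation as a replicate block, 0 of all 15839 genes were called in the diet contrasts and the interaction. That 0 members were called there therefore says nothing particular about them. No block could be fitted between populations, which share no isolation. Where Lamb3 is among the members called in a contrast with Hopx libraries, nothing is read from its call. The count of members called rose from 0 to 1 between diets in Lgr5 cells with DESeq2 and with no filter. With DESeq2 it rose to 1 between diets in Hopx cells and to 2 between populations under CR. Between populations under AL it rose to 4 with DESeq2, 2 with no filter, 3 in each of the 3 TPM fits, 1 with length correction, which was chosen after seeing the data, and 0 to 2 when single libraries were left out. On TPM with pseudocounts of 1 and 0.1, the interaction became 0.065 and 0.069 for Lamb1 and 0.31 and 0.31 for Itga6. The population difference under AL became -0.20 and -0.26 for Lamb1 and -0.69 and -0.70 for Itga6, and that of Lamb1 under CR became -0.14 and -0.19. The median isolation difference of Lamb2 became 0.010 on TPM. Leaving out single libraries gave ranges of log2 differences that cross 0 for Lama3 between diets in Lgr5 cells (-0.057 to 2.86), for Lamb1 (-0.75 to 1.52), Lamb2 (-0.064 to 0.51) and Lamc1 (-0.125 to 1.21) between diets in Hopx cells, for the interaction of Lama3 (-0.43 to 2.63), Lamb1 (-1.73 to 0.55), Lamc1 (-0.51 to 0.82) and Itga6 (-0.41 to 0.070), for the AL population difference of Lamb1 (-0.17 to 1.09) and Itga6 (-0.17 to 0.30), and for that under CR of Lamb1 (-1.33 to 0.94) and Itga6 (-0.26 to 0.010). Where this left 1 Hopx library in a group, that library was assumed to vary like the other groups.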
